A study of Homo sapiens with 18 samples.

Results

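The comparison described here sets THP-1 cells carrying active PHF8 against THP-1 cells carrying PHF8 with the F279S substitution, a phenylalanine-to-serine change that inactivates the enzyme. It rests on 8 of the 18 samples of the series, 4 labelled PHF8 and 4 labelled F279S, chosen by those labels. The 4 samples of the parental line, labelled wt, are given as levels beside them and enter none of the tests reported here, but do enter an alternative fit of the closing section. THP-1 is a human monocytic leukaemia cell line with the MLL-AF9 fusion, and no label names a loss of the cells' own PHF8 gene in any of the 3 lines. No drug treatment is named for these 12 samples, which were grown in DMEM with serum. How the 2 forms were introduced, and whether each line is a single clone or a pool, is not given in the sources used here. Any difference between the lines that is not due to the substitution therefore cannot be told apart from it.

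PHF8 belongs to the PHF2 and KDM7A family of histone demethylases. Its PHD finger binds histone H3 trimethylated on lysine 4, the mark of active promoters, and its Jumonji domain removes methyl groups from other lysines of histones H3 and H4 that mark silent or poised chromatin, with iron and 2-oxoglutarate as cofactors. F279S lies in the Jumonji domain and is known from families with X-linked intellectual disability and cleft lip or palate. A protein without activity can still be recruited to chromatin, so a comparison of the 2 forms asks which transcripts differ with the enzyme's activity, not with its presence.

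Values are CPM, the reads of a gene scaled to the same library size in every sample, and differences are on the scale log2(CPM + 0.5), PHF8 minus F279S, with their standard errors (SE). Rises and falls are those of PHF8 against F279S, and not changes from wt. Depth ran from 18239474 to 51517469 reads per sample. Replicates 1 and 2 of every line resembled each other, as did replicates 3 and 4, and the first principal component of the 12 samples, with 45.2% of the variance, separated these library pairs. The second, with 36.8%, separated the PHF8 samples from wt and F279S. The pair was therefore a term of every test, and each difference is also given within replicates 1 and 2 (pair 1) and within replicates 3 and 4 (pair 2). The labels do not say what the pairs are, or whether samples within a pair are separate cultures. With the pair as a term, p-values leave out the spread between pairs that the lines share. Those for a single pair, or for a difference between pairs, measure only the spread between samples of the same line and pair.

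PHF8 RNA itself showed which lines carried added PHF8, but not which form, because CPM per gene do not show the substitution. The parental line held 53.4, 49.3, 54.0 and 45.5 CPM, the F279S line 5781, 5333, 5409 and 5001 CPM and the PHF8 line 2096, 2080.1, 2006 and 1899.7 CPM in replicates 1 to 4. Both derived lines thus carried far more PHF8 RNA than the parent, 40.0-fold for PHF8 and 106-fold for F279S, and the F279S line carried 2.66 times as much as the PHF8 line in mean CPM. The log2 difference was -1.41 ± 0.06 (SE), and it was -1.41 in each pair. A gene that follows the amount of PHF8 protein rather than its activity cannot be told apart here from one that follows activity. Protein levels were not measured in these files.

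Of the 13530 genes with at least 1 CPM in at least 4 of the 8 samples, 5408 (40.0%) differed at an adjusted p below 0.05 (limma with trend, Benjamini-Hochberg adjustment), 3083 (22.8%) higher and 2325 (17.2%) lower in PHF8. Requiring the same call in both pairs left 3232 genes (23.9%), of which 1904 (14.1%) were higher and 1328 (9.82%) lower. Most of these differences were small. Among the genes higher in both pairs, 1070 (56.2%) averaged under 1.5-fold, and among the lower ones 944 (71.1%) did. At least 2-fold in each pair were 216 genes higher (1.60%) and 55 lower (0.407%). Over all genes tested, the PHF8 and F279S values did not overlap for 26.7%. Each pair was also averaged to 1 value per line, which leaves 2 values a line, in a fit that included wt. There 1609 genes (11.9%) were called for PHF8 against F279S, and 991 of the 1904 and 615 of the 1328 were among them.

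**Figure D1:**
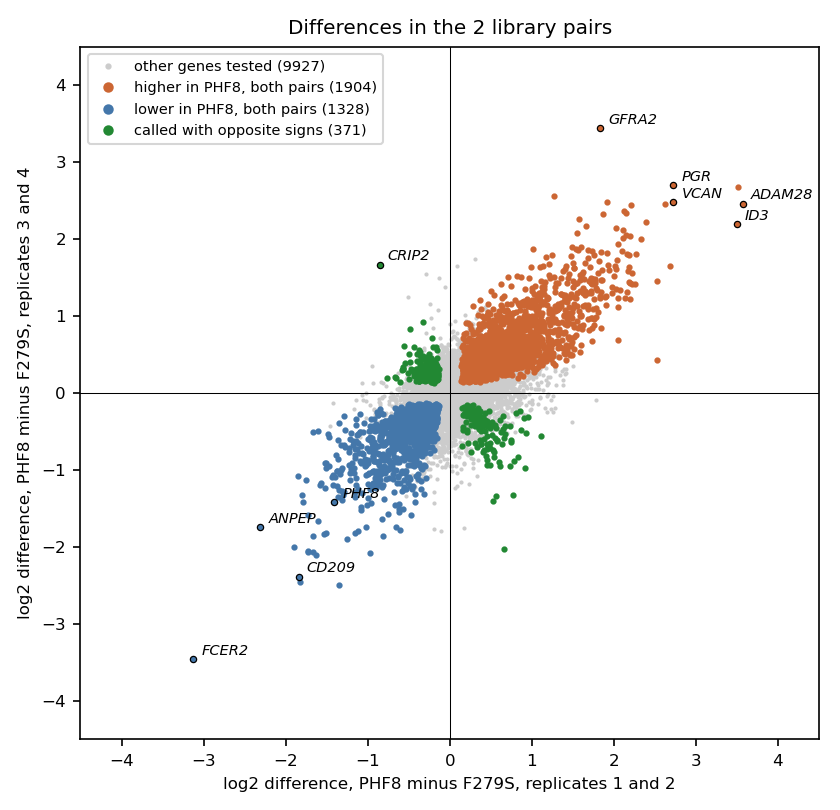
Log2 difference between PHF8 and F279S for each of the 13530 genes tested, in replicates 1 and 2 (horizontal axis) and in replicates 3 and 4 (vertical axis). The 1904 genes higher and 1328 lower in both pairs fill the upper right and lower left, the 371 called with opposite signs the other corners, and PHF8 itself sits at -1.41 on both axes.

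The 12 largest rises and 12 largest falls were taken among genes called in both pairs that averaged at least 5 CPM in the higher line and whose span overlaps no other gene. Among the rises, 9 of the 12 genes averaged under 2 CPM in F279S. ADAM28, a membrane metalloprotease with a disintegrin domain, stood at 0.736, 0.164, 1.23 and 1.09 CPM in F279S replicates 1 to 4 and at 10.8, 9.74, 9.98 and 7.49 CPM in PHF8 (log2 difference 3.02 ± 0.25, adjusted p = 1.2e-05). Each PHF8 sample lay above every F279S sample, and wt averaged 0.957 CPM. PGR, the progesterone receptor, went from 0.476, 0.877, 0.915 and 0.854 CPM to 6.38, 8.06, 8.19 and 8.90 CPM, a log2 difference of 2.73 in pair 1 and 2.71 in pair 2 (2.72 ± 0.13 over both, adjusted p = 4.6e-07). It was under 1 CPM in all 4 F279S samples and passed the filter on low values through PHF8, so that a difference was required of it, and wt held 0.60 ± 0.247 CPM (SD, n = 4).

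ID3, a BMP target whose protein binds helix-loop-helix transcription factors and keeps them off DNA, was the next largest rise after ADAM28. It held 0.779, 0.768, 6.63 and 6.85 CPM in F279S and 12.7, 15.1, 32.2 and 33.2 CPM in PHF8 (log2 difference 2.85 ± 0.22, adjusted p = 7.7e-06). The F279S values split by pair, below 1 CPM in replicates 1 and 2 and near the wt mean of 5.37 CPM in replicates 3 and 4, so that the difference was 3.50 in pair 1 and 2.20 in pair 2. Its relative ID1 rose as well, from 37.7 to 75.1 CPM on average (1.34 ± 0.17). ID2, at 116 to 123 CPM, did not pass (adjusted p = 0.71).

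VCAN, which encodes the matrix proteoglycan versican, had the highest level of the 12. F279S held 41.9, 33.6, 173 and 149 CPM and PHF8 held 258, 245, 957 and 843 CPM, 5.80 times the mean (log2 difference 2.61 ± 0.09, adjusted p = 1.0e-07). Both lines, and wt at 53.4, 53.3, 158 and 147 CPM, had several times more VCAN RNA in replicates 3 and 4 than in replicates 1 and 2, yet the difference was 2.73 in one pair and 2.48 in the other. ELOVL6, an elongase that makes C18 from C16 fatty acids, was even across pairs, at 1.34, 1.15, 1.23 and 1.11 CPM in F279S against 8.82, 8.43, 7.21 and 7.44 CPM in PHF8 (2.31 ± 0.10).

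The other 7 of the 12 largest rises ran from a log2 difference of 2.10 to 2.64. They were GFRA2, a receptor for neurturin, NCKAP1, a subunit of the actin-regulating WAVE complex, EPB41L3, a membrane-cytoskeleton linker, PYHIN1, a DNA-binding protein of the IFI16 family, DLX3, a homeobox factor, SNAP25, a membrane-fusion SNARE, and KDELC1, a protein glucosyltransferase. EPB41L3 had the highest CPM of these, 10.5, 9.32, 8.62 and 8.87 in F279S and 38.4, 39.1, 50.9 and 51.7 in PHF8. GFRA2 differed in size between pairs (1.83 and 3.45, adjusted p of the difference = 0.00031), as did PYHIN1 (2.69 and 1.65, 0.0076) and EPB41L3 (1.92 and 2.49, 0.0047). SNAP25 was under 1 CPM in all 4 F279S samples and passed the filter through PHF8, so that a difference was required of it.

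The 4 largest falls were in genes for cell surface proteins. FCER2, the low-affinity IgE receptor CD23, had 8.22, 8.33, 17.3 and 15.9 CPM in F279S and 0.659, 0.370, 0.994 and 1.12 CPM in PHF8, so that the F279S mean was 15.8 times the PHF8 mean (log2 difference -3.29 ± 0.12, adjusted p = 1.3e-07). The parental line, at 3.76, 4.07, 15.5 and 16.1 CPM, was above every PHF8 sample. CR1, a complement receptor, fell from 12.4, 8.66, 36.4 and 30.9 to 2.69, 2.47, 5.74 and 5.64 CPM (-2.14 ± 0.15, adjusted p = 4.0e-06). As in wt, its level was several times higher in pair 2 of the F279S line, and the fall was -1.82 in pair 1 and -2.46 in pair 2.

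CD209, the C-type lectin DC-SIGN of dendritic cells and macrophages, fell from 91.0, 81.7, 100.2 and 94.8 CPM to 24.6, 22.8, 18.6 and 17.9 CPM (-2.11 ± 0.10, adjusted p = 4.4e-07). The F279S line was above wt, which had 36.7, 38, 71.3 and 67.5 CPM, and the PHF8 line was below it. ANPEP, the aminopeptidase CD13 used to type myeloid leukaemias, stood at 166, 160.1, 189.7 and 177 CPM in F279S and 31.2, 34.0, 56.1 and 52.6 CPM in PHF8 (-2.03 ± 0.10, adjusted p = 5.5e-07). For both genes every PHF8 sample lay below every F279S sample, though the fall differed in size between pairs (CD209 -1.84 and -2.39, adjusted p of the difference = 0.0043, and ANPEP -2.31 and -1.74, 0.0021).

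CCL5, a chemokine for T cells and monocytes, was well expressed in both lines, at 146, 152, 175 and 182 CPM in F279S and 44.3, 44.9, 40.9 and 43.4 CPM in PHF8 (-1.90 ± 0.07, adjusted p = 1.3e-07). Among the other 7 of the 12 largest falls, between -1.53 and -1.92, were the cytokine receptor IL31RA, the tetraspanin CD82, the phagosomal metal transporter SLC11A1 (NRAMP1), MS4A3, a marker of granulocyte-monocyte progenitors, ARAP3, an activator of GTP hydrolysis by small G proteins, and NMUR1, a neuromedin U receptor. CD82 went from 57.2, 61.8, 81.2 and 81.4 to 19.4, 19.1, 25.5 and 25.2 CPM, with -1.60 in pair 1 and -1.66 in pair 2. MS4A3 went from 57.4, 61.4, 50.8 and 52.9 to 20.6, 19.9, 13.2 and 15.3 CPM. The last, ANXA8 (-1.87), has near-identical copies on chromosome 10, and its reads may be divided among them.

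**Figure D2:**
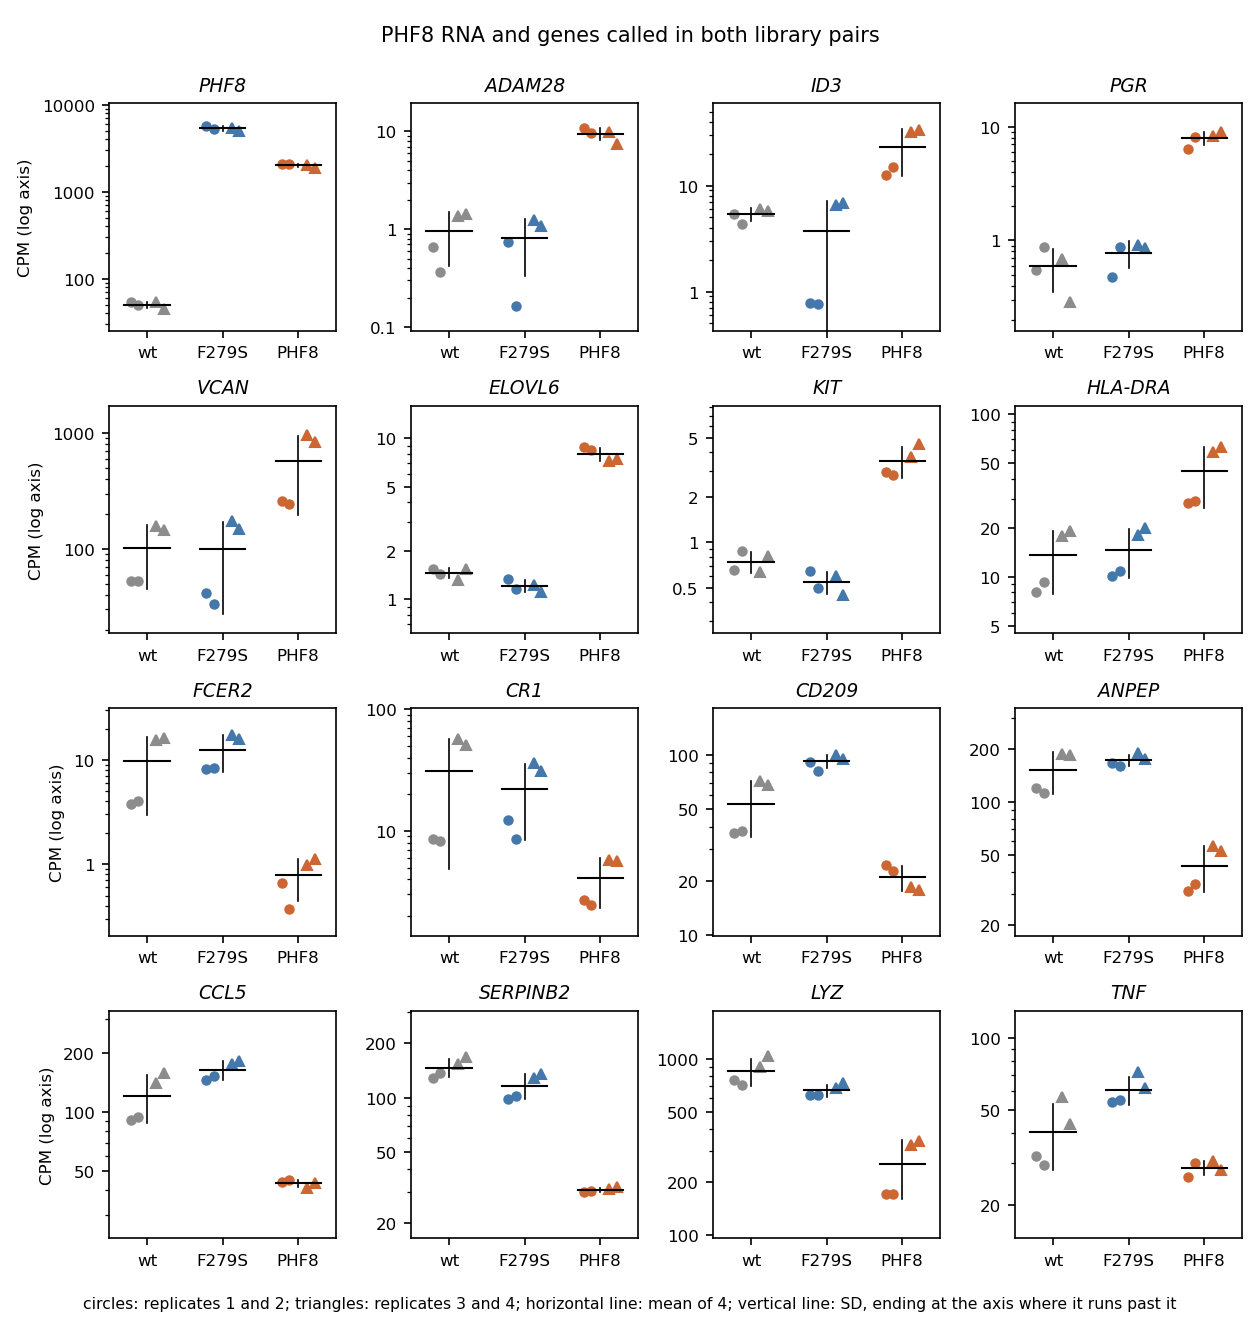
CPM on a log axis of PHF8 and of 15 genes called in both pairs, in the 4 samples each of wt, F279S and PHF8 (circles replicates 1 and 2, triangles 3 and 4, horizontal line the mean, vertical line the SD). In all 15 called genes the F279S and PHF8 samples do not overlap, which the filter on low values required of PGR and KIT, with PHF8 higher in ADAM28, ID3, PGR, VCAN, ELOVL6, KIT and HLA-DRA and lower in the rest.

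The largest differences in CPM were in abundant transcripts. SRGN, the proteoglycan core of secretory granules, fell from 3297, 3543, 3790.4 and 4164 CPM to 2413, 2456, 2476 and 2677 CPM (-0.56 ± 0.06). LYZ, the lysozyme of monocytes, fell from 623, 622, 682 and 731 to 172, 172, 325 and 341 CPM, by 1.85 on the log2 scale in pair 1 and 1.08 in pair 2 (adjusted p of the difference between pairs = 0.00014). PPT1, a lysosomal thioesterase, fell from 2428 ± 103 to 1961 ± 113 CPM (SD, n = 4), and TMSB4X, which binds monomeric actin, from 1457 ± 454 to 1006 ± 213 CPM with some overlap of the lines. Besides VCAN, the largest CPM rises were those of EEF2, EEF1A1 and TPT1, which encode translation elongation factors and a translationally controlled protein. EEF2 rose from 2346, 2298, 2633 and 2709 to 3415, 3462, 3356 and 3192 CPM (0.43 ± 0.07), EEF1A1 by 0.29 and TPT1 by 0.47 on the log2 scale. With each pair averaged, PPT1 and EEF1A1 no longer passed (adjusted p = 0.056 and 0.075).

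The other enzymes that write or erase histone methylation were next compared. Of the 24 histone demethylases listed, 21 were tested, and 4 rose and 4 fell (19.0% each), PHF8 itself among the falls. These shares were close to those over all tested genes, 22.8% higher and 17.2% lower. The 2 relatives of PHF8 went opposite ways. KDM7A rose from 1.95, 1.64, 2.73 and 2.54 CPM to 4.00, 4.32, 5.68 and 5.08 CPM (0.97 ± 0.10, adjusted p = 5.1e-05), and PHF2 fell from 47.8, 46.7, 49.7 and 49.1 to 33.6, 32.4, 36.9 and 33.7 CPM (-0.50 ± 0.05, 5.3e-05). In both genes all 4 PHF8 samples were on one side of all 4 F279S samples. KDM1B (27.0 to 40.4 CPM), KDM1A (106 to 125 CPM) and JMJD1C (255 to 359 CPM) also rose, and JMJD6 (45 to 34.7 CPM) and the H3K27 demethylase KDM6B (13.8 to 9.85 CPM) fell. Of 23 tested enzymes and partners that write the marks PHF8 reads or removes, 2 rose (8.70%) and 5 fell (21.7%). SETDB2 rose (0.40), the PRC2 subunit SUZ12 fell (-0.19) and so did SETD8, the writer of monomethylated H4K20 (52.7 to 45.6 CPM, -0.21). E2F1, a transcription factor on that list as a partner of PHF8, fell by 0.30 on the log2 scale. The H3K27 writer EZH2 (-0.01) and the H3K9 writers EHMT1 (0.01), EHMT2 (-0.02) and SETDB1 (-0.01) did not pass. Averaging each pair left 3 demethylases higher and 3 lower, and 1 of the writers and partners higher and 0 lower.

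Genes were next grouped by function, from lists put together with earlier results of these data known, so that their direction is a description and not independent evidence. The counts of each list are read against the 22.8% of all tested genes called higher, the 17.2% called lower, and their median log2 difference of 0.02. Genes whose span overlaps another gene can share reads with it, and among those named in the lists this holds for ALDH1L2, BMI1, CASP9, CD36, CIITA, DDIT3, DLL1, ENO2, EPOR, FCGR1A, FUT4, HBG2, HLA-DMA, HLA-DMB, HLA-DPA1, HLA-DPB1, HOXA10, HOXA9, HSP90AA1, IFI30, IFIT3, IL18, IRF3, JMJD1C, JUNB, MB21D1, MCM2, MCM7, MS4A7, PLAU, PSMB9, RSAD2, RUNX1, SERPINB2, SETDB1, SLC1A5, TAP1, TP53INP1, TRIM22 and TRIM5.

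**Figure D3:**
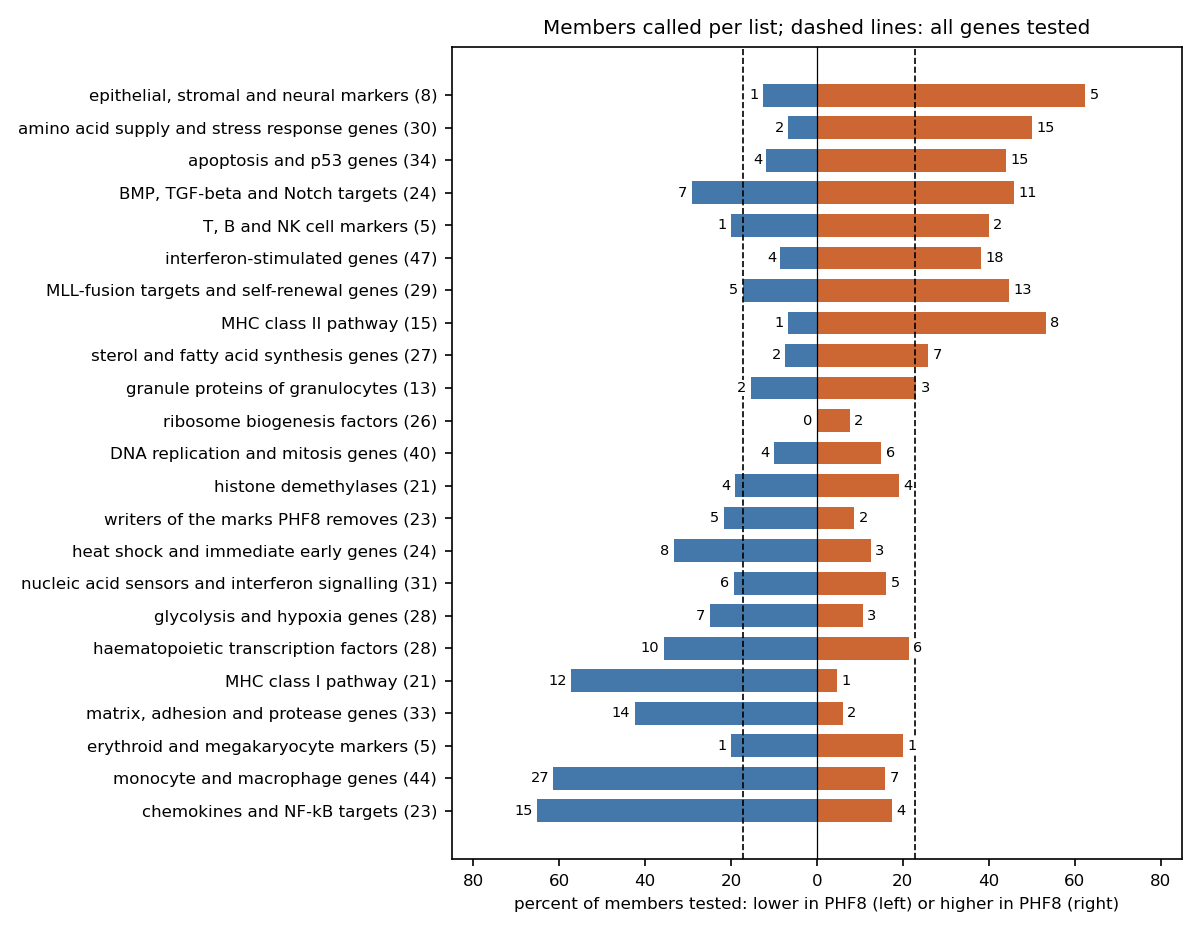
Percent of the tested members of each list that were lower (left) or higher (right) in PHF8 at an adjusted p below 0.05, with the count beside each bar, the number tested in brackets and the shares over all tested genes as dashed lines. Chemokines and NF-kB targets and monocyte and macrophage genes have the longest bars to the left, and the 8 epithelial, stromal and neural markers that passed the filter the longest to the right. Of these 8, 3 passed through PHF8 alone, which sets part of that bar. So did HLA-DMB and HLA-DPB1 of the MHC class II list and KIT of the MLL-fusion list, while DLL4 of the Notch list passed through F279S alone.

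Monocyte and macrophage genes were mostly lower with active PHF8. Of 52 listed, 44 were tested, 27 fell and 7 rose (61.4 and 15.9%), with a median log2 difference of -0.34. The calcium-binding alarmins fell together, S100A9 from 128, 141, 173 and 184 to 68.2, 71.6, 85.6 and 90.6 CPM (-0.98 ± 0.05) and S100A8 from 38.7 to 23.5 CPM on average. So did the lineage factor SPI1 (352 to 277 CPM, -0.34 ± 0.05). Receptors and adaptors that fell included SIRPA (-0.71), the Fc receptor FCGR1A (-0.76), TREM1 (-1.22), TYROBP (-0.50), CD4 (-0.40) and CD14 (8.0 to 5.38 CPM, -0.54).

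Against that direction, VCAN, the scavenger receptor CD36 (44.1 to 80.8 CPM), MS4A7 (198 to 295 CPM) and cathepsin L (CTSL, 56.1 to 72.4 CPM) rose in both pairs. The M-CSF receptor CSF1R (147 to 165 CPM, adjusted p = 0.075) and CD68 (274 to 292 CPM, 0.12) did not pass. Averaging each pair left 13 members lower and 4 higher. In a bulk sample, fewer cells of a kind and less RNA per cell cannot be told apart.

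Chemokines and NF-kB targets had the largest share lower of the lists described, 15 of 23 tested (65.2%), against 4 higher, with a median of -0.34. TNF fell from 53.7, 54.8, 71.8 and 61.8 CPM to 26.2, 30.0, 30.5 and 28.1 CPM (-1.06 ± 0.08, adjusted p = 5.0e-06), with no overlap between the lines. Its wt values, 32.0, 29.5, 56.3 and 43.8 CPM, were near PHF8 in pair 1 and between the lines in pair 2. The inhibitor TNFAIP3 (A20) fell from 13.6, 14.1, 17.9 and 18.7 to 8.26, 7.85, 8.03 and 8.47 CPM (-0.93 ± 0.09). The NF-kB subunit genes NFKB1 (-0.53), NFKB2 (-0.45) and RELB (-0.44) fell in both pairs, and with them CCL3 (5.36 to 2.48 CPM), CXCL8 (22.4 to 12.7 CPM) and IL1B (10.2 to 6.86 CPM). The 4 that rose were BIRC3 (0.982 to 3.30 CPM, 1.36), an inhibitor of apoptosis, the cytokine IL18 (12.3 to 22.6 CPM), PTGS2 (1.51 to 2.86 CPM) and the NF-kB inhibitor NFKBIA (57.2 to 68.5 CPM). Averaging each pair left 6 lower and 2 higher.

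Among matrix, adhesion and protease genes, 14 of 33 tested fell and 2 rose. SERPINB2, the plasminogen activator inhibitor of monocytes, fell from 98.9, 102, 129 and 136 CPM to 29.7, 30.3, 31.1 and 31.7 CPM (-1.89 ± 0.07, adjusted p = 1.3e-07); its span overlaps another gene, with which it can share reads. The urokinase receptor PLAUR fell from 55.6, 57.5, 80.8 and 80.9 to 31.4, 33.9, 51.0 and 51.1 CPM and urokinase itself, PLAU, from 50.7 to 31.5 CPM on average. ITGA5, the fibronectin receptor subunit, went from 153, 149, 208 and 211 to 84.5, 84.4, 106 and 106 CPM (-0.91 ± 0.05). Of the matrix metalloproteases, MMP2 (23.5 to 10.5 CPM) and MMP14 (191 to 131 CPM) fell, and MMP9 rose (3.36 to 7.54 CPM, 1.05 ± 0.11), as ADAM28 did. For 18 of the 33, the difference itself differed between pairs. Averaging each pair left 2 higher and 9 lower.

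Transcription factors of blood cells were mixed, with 6 of 28 higher and 10 lower. EGR1, an immediate early factor of monocyte differentiation, fell from 200.3, 197, 148 and 129 CPM to 94.3, 101, 44.8 and 37.5 CPM (-1.38 ± 0.13, adjusted p = 2.8e-05). EGR3 fell from 11.1, 11.5, 7.82 and 6.56 to 4.81, 5.06, 2.21 and 1.32 CPM (-1.45 ± 0.16), and FOS (-0.46), JUN (-0.56), JUNB (-0.53) and IER2 (-0.47), other immediate early genes, were also lower. ATF3, another gene of that class, rose (1.60, 1.86, 1.75 and 1.65 CPM against 3.04, 3.45, 3.70 and 3.93 CPM). In the list of 24 tested heat shock and immediate early genes, 3 rose and 8 fell, and the chaperones HSP90AA1, HSPA8 and HSPD1 were each at 0.11 without passing. Besides ID3 and ID1, TCF4 (10.8, 9.43, 11.0 and 10.4 against 19.3, 17.3, 17.1 and 16.4 CPM), BCL11A (0.52), MITF (0.54) and NFIA (1.03) rose. RUNX1 (209 to 207 CPM), IKZF1 (253 to 253 CPM) and CEBPA (567 to 608 CPM) did not pass. Averaging each pair left 2 of the 28 factors higher and 4 lower.

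The 2 arms of antigen presentation went opposite ways. MHC class II genes, which present peptides to helper T cells, were higher. HLA-DRA rose from 10.1, 10.9, 18.0 and 19.8 CPM to 28.6, 29.3, 58.7 and 62.7 CPM (1.54 ± 0.07, adjusted p = 3.1e-07), and HLA-DPA1 from 1.56, 1.64, 2.69 and 2.87 to 5.98, 5.43, 11.3 and 11.4 CPM (1.71 ± 0.10). HLA-DMA (10.5 to 19.7 CPM), HLA-DMB (0.416 to 1.40 CPM) and HLA-DPB1 (0.624 to 2.20 CPM) rose too, and so did HLA-DRB1 (127 to 163 CPM) and HLA-DRB5 (37.2 to 60.3 CPM), which are near-identical in sequence and may share reads. In all, 8 of 15 tested rose (53.3%) and 1 fell, and 6 rose with each pair averaged. HLA-DMB and HLA-DPB1 passed the filter on low values through PHF8, so that a difference was required of them. With no filter on low values, 9 of 17 rose and 1 fell. CIITA, the transactivator of these genes, was not called (14.9 to 15.6 CPM, adjusted p = 0.58), nor was the invariant chain CD74 (223 to 226 CPM, 0.89). The gene that fell was IFI30, a lysosomal thiol reductase (-0.78).

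In the MHC class I pathway, by contrast, 12 of 21 tested fell (57.1%) and 1 rose. HLA-B fell from 518, 573, 632 and 687 to 394, 406, 466 and 484 CPM (-0.46 ± 0.05) and HLA-C from 191 to 169 CPM on average. The peptide transporter subunit TAP1 (-0.39), the loading factor TAPBP (-0.35), the immunoproteasome subunit PSMB9 (-0.30) and the class I transactivator NLRC5 (-0.32) fell. B2M, the light chain, did not pass (1111 to 1127 CPM, adjusted p = 0.77). These falls were small, with a list median of -0.17, and 3 members were called with each pair averaged.

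Interferon-stimulated genes, the antiviral genes that interferon switches on, were more often higher than lower, but not throughout. Of 47 tested, 18 rose (38.3%) and 4 fell, with a median of 0.09 in pair 1 and 0.31 in pair 2. After averaging within pairs, 5 rose and 0 fell. LGALS3BP rose from 2.73, 2.85, 1.95 and 2.12 CPM to 9.48, 9.99, 6.02 and 5.53 CPM (1.47 ± 0.10, adjusted p = 3.6e-06). RSAD2 (viperin) rose from 6.14, 6.41, 6.59 and 5.75 to 13.1, 13.0, 16.5 and 15.9 CPM (1.16 ± 0.09), and can share reads with an overlapping gene. SAMD9 (45.9 to 64.5 CPM), SAMD9L (27.7 to 39.2 CPM), DDX60 (26.2 to 37.4 CPM), OAS1 (11.6 to 19.4 CPM), IFIT3 (4.55 to 7.41 CPM) and GBP4 (2.93 to 7.14 CPM) also rose in both pairs.

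Several members that respond strongly to interferon did not rise. ISG15 fell from 12.9 to 9.10 CPM on average (-0.80 in pair 1 and -0.04 in pair 2), MX1 stood at -0.48 and 0.83 in the pairs, and IFI6 at -0.52 and 0.21. MX1 and IFI6 did not pass over both pairs (adjusted p = 0.55 and 0.41). TRIM22 (6.50 to 2.92 CPM), TRIM5 (22.7 to 17.4 CPM) and XAF1 (40.2 to 32.0 CPM) fell in both pairs. None of the 20 type I and III interferon genes listed reached 1 CPM in 4 samples.

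Among sensors of nucleic acids and the signalling proteins of the pathway, 5 of 31 rose and 6 fell. IFI16, a DNA sensor, rose from 20.2, 17.2, 15.8 and 14.2 CPM to 37.7, 36.9, 34.7 and 34.3 CPM (1.08 ± 0.07, adjusted p = 3.6e-06). The RNA sensor DDX58 (RIG-I) rose from 12.2, 12.3, 12.3 and 12.2 to 21.1, 19.3, 20.9 and 20.9 CPM (0.72 ± 0.06), with 11.4 ± 1.05 CPM in wt (SD, n = 4). SOCS3, a feedback inhibitor of cytokine signalling, fell from 4.67, 4.5, 9.35 and 9.39 to 1.42, 1.77, 3.68 and 3.42 CPM (-1.29 ± 0.09). The interferon regulatory factors IRF8 (993 to 768 CPM), IRF5 (146 to 112 CPM) and IRF3 (96.6 to 76.8 CPM) fell in both pairs, and so did the DNA sensor cGAS, listed as MB21D1 (49.3 to 41.2 CPM). STING, listed as TMEM173 (0.33 and -0.24 in the pairs), MAVS and IFIH1 (MDA5) did not pass.

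Promoters of single members were read for the core of the interferon response element, GAAANNGAAA, 2 copies of GAAA with 2 bases between them, on either strand. RefSeq promoters (GRCh38.p14, 250 bases before to 50 after the start site) were found for 37 of the 47 genes (78.7%), under the 80% needed, so a count over the list is void and none is given. Of all 35116 promoters in the table, 3.57% hold the motif. The 40 bases around a match, with the match in capitals, are shown for 4 members that rose, then for ISG15, which fell, and for MX1 and IFI6, which did not pass, because promoters that share these letters went with different values.
PLSCR1: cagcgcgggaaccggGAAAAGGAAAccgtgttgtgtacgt
LGALS3BP: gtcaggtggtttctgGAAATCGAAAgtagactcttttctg
SAMD9: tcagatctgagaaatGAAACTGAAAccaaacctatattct
GBP4: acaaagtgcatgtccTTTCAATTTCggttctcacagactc
ISG15: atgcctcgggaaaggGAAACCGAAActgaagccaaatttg
MX1: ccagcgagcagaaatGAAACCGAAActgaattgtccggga
IFI6: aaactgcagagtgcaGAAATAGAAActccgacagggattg
Each is written 5′ to 3′ on the strand of its gene, on which the GBP4 match reads as the reverse complement. They lie at chr3:146544662-146544701 (minus strand), chr17:78979957-78979996 (minus strand), chr7:93118091-93118130 (minus strand), chr1:89198922-89198961 (minus strand), chr1:1013375-1013414 (plus strand), chr21:41420554-41420593 (plus strand) and chr1:27672261-27672300 (minus strand). PLSCR1, a phospholipid scramblase, had 36.8, 37.6, 36.0 and 35.2 CPM in F279S and 47.2, 49.0, 48.5 and 51.1 CPM in PHF8, all PHF8 samples above all F279S samples. ISG15, a ubiquitin-like modifier, had 16.2, 16.3, 8.28 and 10.7 CPM in F279S and 8.77, 9.41, 9.0 and 9.20 CPM in PHF8, and there the lines overlapped.

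Granule proteins of granulocytes showed no common direction, with 3 of 13 tested higher and 2 lower. The serine proteases of azurophil granules rose slightly, CTSG from 835, 934, 717 and 783 to 1127, 1165, 912 and 954 CPM (0.35 ± 0.06), PRTN3 by 0.30 and ELANE by 0.23 on the log2 scale, while AZU1 (0.08) and MPO (-0.31) did not pass. For CTSG, wt held 1444, 1433, 924 and 1134 CPM, above both derived lines in each replicate, so F279S lay further from the parent than PHF8 did. With each pair averaged, 0 rose and the 2 that fell, SRGN and the fucosyltransferase FUT4, were still called.

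Targets of MLL fusions and genes of leukaemic self-renewal were more often higher, 13 of 29 tested (44.8%) against 5 lower. BMI1, a Polycomb subunit, rose from 267, 269, 213 and 221 CPM to 521, 514, 494 and 520.0 CPM (1.08 ± 0.06, adjusted p = 1.0e-06), though its span overlaps another gene. ZNF521, a zinc finger protein of blood progenitors, rose from 117, 113, 124 and 121 to 204, 195, 202 and 207 CPM (0.76 ± 0.04). The stem cell factor receptor KIT, under 1 CPM in F279S at 0.649, 0.493, 0.597 and 0.446 CPM, reached 2.94, 2.80, 3.74 and 4.52 CPM (1.92 ± 0.15). It passed the filter on low values through PHF8, so that a difference was required of it. The fusion targets MEF2C (229.7 to 335 CPM), PBX3 (155 to 224 CPM), CDK6 (150.1 to 233 CPM) and JMJD1C rose in both pairs. MYB (426 to 332 CPM), LMO2 (269 to 193 CPM) and HOXA7 (6.07 to 3.26 CPM) fell in both pairs, and HOXA9 (166 to 172 CPM) and HOXA10 (74.8 to 76.6 CPM) did not pass. After averaging within pairs, 8 rose and 3 fell.

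In the BMP, TGF-beta and Notch list, 11 of 24 tested rose and 7 fell. LTBP1, which tethers latent TGF-beta, rose from 1.47, 1.48, 2.29 and 1.79 to 5.93, 5.10, 9.34 and 8.53 CPM (1.75 ± 0.11), and SMAD9, a transducer of BMP signals, from 0.779, 0.768, 1.47 and 1.51 to 2.89, 3.33, 5.92 and 5.98 CPM (1.60 ± 0.11). The feedback inhibitors SKIL (21.2, 17.7, 63.8 and 57.1 against 32.7, 30.7, 104 and 104 CPM), SMAD7 (0.44) and SMAD6 (0.29) rose, as did the receptors BMPR1A (0.40), BMPR2 (0.30) and TGFBR2 (0.31). For SKIL, wt held 31.8, 31.0, 56.1 and 47.4 CPM, near PHF8 in pair 1 and below both lines in pair 2. On the Notch side, the receptor NOTCH1 fell (119 to 71.3 CPM), the ligand DLL4 fell (3.03 to 0.669 CPM), the ligands DLL1 (19.1 to 35.5 CPM) and JAG1 (2.86 to 4.54 CPM) rose, and the target HES1 rose (1.74 to 4.24 CPM, 1.00 ± 0.14). The calls with each pair averaged were 3 higher and 2 lower.

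Of 34 apoptosis and p53 genes tested, 15 rose (44.1%) and 4 fell. Caspases made up part of the rise, with CASP4 going from 38.9, 41.9, 42.1 and 43.5 to 65.1, 63.7, 59.8 and 60.4 CPM (0.58 ± 0.06), and CASP8 (0.25), CASP9 (0.30) and CASP1 (0.21) by less. The sestrin SESN1, a p53 target, rose from 22.3, 20.2, 26.5 and 25.6 to 42.5, 42.8, 41.8 and 44.5 CPM (0.85 ± 0.07), with TP53INP1 (0.99) and SESN2 (0.57). CDKN1A, which encodes p21, also rose, by 0.77 in pair 1 and 0.05 in pair 2. The survival genes BCL2A1 (2.56 to 1.07 CPM, -0.97 ± 0.13) and MCL1 (403 to 371 CPM) fell, and BCL2 did not pass. The calls with each pair averaged were 5 higher and 1 lower.

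Amino acid supply and stress response genes, many of them targets of the transcription factor ATF4, were higher in 15 of 30 tested (50%) and lower in 2. The first enzyme of serine synthesis, PHGDH, rose from 109, 115, 99.9 and 100.3 to 225, 238, 192 and 184 CPM (0.97 ± 0.05, adjusted p = 5.2e-07), and the later enzymes PSAT1 (58.1 to 96.8 CPM) and PSPH (20.3 to 28.5 CPM) rose too. ASNS, asparagine synthetase, went from 21.3, 23.1, 15.5 and 16.1 to 48.7, 46.0, 32.6 and 34.2 CPM (1.06 ± 0.06), and DDIT4, an inhibitor of mTORC1, from 23.3, 27.5, 67.8 and 72.2 to 73.9, 82.0, 144 and 140.4 CPM (1.31 ± 0.11). For DDIT4, wt held 59.8, 58.7, 88.0 and 91.7 CPM, between the lines in each replicate. The transporter SLC1A5 (0.37) and the mitochondrial enzyme ALDH1L2 (0.79) rose in both pairs. ATF4 itself (197 to 216 CPM, adjusted p = 0.12) and DDIT3 (12.5 to 11.7 CPM) did not pass, and the pseudokinase TRIB3 fell (69.0 to 56.9 CPM). After averaging within pairs, 7 rose and 0 fell.

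The letters TGATGNAA, the core of the element that ATF4 and C/EBP partners bind, were searched on both strands in the promoters of 24 members. They were found in 6, of which 4 rose and 2 did not pass, against 3.62% of all promoters in the table. Many members are ATF4 targets, so a share above that of all promoters is no result of these data. Of the 18 members searched whose promoter lacks these letters, 8 rose. The 40 bases around the match are shown for 3 members that rose, CHAC1 mainly in pair 1, and for MTHFD1L, which did not pass (0.06).
ASNS: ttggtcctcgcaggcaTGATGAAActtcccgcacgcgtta
CHAC1: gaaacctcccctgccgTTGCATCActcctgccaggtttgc
AARS: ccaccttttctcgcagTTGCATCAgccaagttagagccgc
MTHFD1L: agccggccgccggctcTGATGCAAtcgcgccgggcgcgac
The match is in capitals, and in CHAC1 and AARS it reads as the reverse complement. The windows lie at chr7:97872453-97872492 (minus strand), chr15:40953246-40953285 (plus strand), chr16:70289670-70289709 (minus strand) and chr6:150866341-150866380 (plus strand). AARS, an alanyl-tRNA synthetase, rose from 206 to 275 CPM on average, and CHAC1, which degrades glutathione, from 1.37 to 2.99 CPM, by 1.42 in pair 1 and 0.27 in pair 2 on the log2 scale.

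In lists of growth and metabolism fewer members passed over both pairs than the 40.0% of all tested genes, but not throughout within single pairs. Over all 13530 genes, the fit of pair 1 alone called 6973 and that of pair 2 alone 5327. Of 40 DNA replication and mitosis genes, 6 rose and 4 fell, and 30 did not pass. In pair 1 alone 10 of the 40 rose and 13 fell, and in pair 2 alone 8 rose and 2 fell. The rises were led by subunits of the replicative helicase, MCM3 (632, 647, 536 and 544 against 826, 817, 882 and 849 CPM), MCM5 (0.39) and MCM7 (0.43), whereas MCM2, MCM4 and MCM6 were at 0.01, -0.06 and 0.10 without passing. MKI67, a marker of cycling cells, did not pass (432 to 388 CPM). With each pair averaged 2 of the list rose and 0 fell, and MCM3 did not pass (adjusted p = 0.099). With the trend on transcript GC removed, 5 of the list rose and 9 fell. Of 26 ribosome biogenesis factors, 2 rose, NPM1 (873, 934, 646 and 710.0 against 1052, 1015, 891 and 948 CPM) and POLR1B (0.26), but the list's median was -0.16 in pair 1 and 0.24 in pair 2, and 22 of the 26 differed between pairs. In pair 1 alone 13 of the 26 fell and 1 rose, and in pair 2 alone 17 rose and 0 fell.

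Of 27 sterol and fatty acid synthesis genes, 7 rose and 2 fell. Apart from ELOVL6, the rises were small, such as HMGCS1 from 127, 115, 200.1 and 207 to 168, 157, 295 and 315 CPM (0.51 ± 0.06), and FASN did not pass (0.07). The sterol isomerase EBP fell (-0.50). Among 28 glycolysis and hypoxia genes, 3 rose and 7 fell, but with no pair block 0 rose and 0 fell, and with each pair averaged 0 rose and 3 fell. SLC2A3, a glucose transporter, fell from 3.98, 3.89, 16.6 and 18.0 to 1.52, 1.48, 4.91 and 4.15 CPM (-1.49 ± 0.14), while SLC2A1 did not pass (283 to 263 CPM). PGAM1, a glycolytic mutase, fell from 124, 124, 174 and 188 to 98.9, 101, 135 and 146 CPM, and ENO2, which overlaps another gene, was several times higher in pair 2 of every line (3.20, 4.82, 50.1 and 46.2 in F279S, 2.33, 1.77, 12.8 and 12.9 CPM in PHF8).

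The 12 monocytic markers all averaged at least 1 CPM over the 8 samples and summed to between 3274 and 4189.6 CPM in F279S and between 2351 and 3342 CPM in PHF8. Of 18 T, B and NK cell markers in the table, 5 reached a mean of 1 CPM, and their sums were 34.3 to 49.1 and 43.0 to 52.4 CPM. PAX5, the B-lineage factor, rose from 3.85, 2.58, 4.66 and 4.66 to 11.6, 12.3, 13.7 and 14.1 CPM (1.62 ± 0.12) and NCAM1 from 1.9, 1.86, 3.48 and 3.49 to 6.44, 6.50, 9.08 and 9.57 CPM (1.42 ± 0.09), while NKG7 fell (21.5, 22.6, 24.1 and 27.0 to 14.9, 17.5, 14.9 and 16.6 CPM). NKG7 averaged 15.2 CPM in wt, near the PHF8 mean of 16.0 CPM and below the F279S mean of 23.8 CPM.

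Of 27 epithelial, stromal and neural markers, 8 were tested, 5 rose and 1 fell. Besides PGR, the homeobox gene MEOX2 rose from 0.476, 0.384, 0.279 and 0.136 to 3.55, 4.07, 3.28 and 3.4 CPM (2.33 ± 0.13) and the neuropeptide NPY from 0.389, 0.329, 0.239 and 0.155 to 3.80, 3.86, 2.27 and 2.33 CPM (2.17 ± 0.13), both from under 1 CPM, whereas COL1A1, the most abundant of them, did not pass (5.99 to 4.37 CPM). PGR, MEOX2 and NPY, like SNAP25, KIT, HLA-DMB and HLA-DPB1 above, passed the filter on low values through the PHF8 samples, and DLL4 through the F279S samples, so that a difference was required of them. With no filter on low values, 7 of 25 markers of this list rose and 1 fell, with a median log2 difference of 0.03. The 27 markers summed to between 12.6 and 49.1 CPM in F279S and between 30.4 and 59.1 CPM in PHF8. Of 20 erythroid and megakaryocyte markers, 6 were listed at 0 in all 8 samples and 5 were tested. HBG2 rose (5.32 to 8.93 CPM) and EPOR fell (13.0, 12.3, 20.4 and 19.7 to 9.78, 10.4, 10.2 and 10.4 CPM), both overlapping other genes, and GP1BA did not pass. The sum over this list was 344 to 473 CPM in F279S and 275 to 389 CPM in PHF8, most of it TFRC, the transferrin receptor of dividing cells, with a mean of 338 CPM.

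Some of the leading genes are neighbours. FCER2 (chromosome 19, 7688758 to 7702146, hg38) and CD209 (7739994 to 7747564) are 37.8 kb apart, and CLEC4G between them was also called lower (1.43, 1.86, 3.78 and 2.60 to 1.06, 1.11, 1.09 and 1.04 CPM, -0.82 ± 0.19). That call was not made in pair 1 (-0.43, adjusted p = 0.078) or with each pair averaged (adjusted p = 0.11). On chromosome 1, PYHIN1 (158930796 to 158977054) ends 22.9 kb before IFI16 (158999968 to 159055155), and both rose. Their family member MNDA, on the other side of PYHIN1, fell from 166, 166, 91.1 and 96.9 to 86.0, 85.5, 59.1 and 66.5 CPM (-0.76 ± 0.08). CLEC4G and MNDA were chosen after their values were seen, for their position.

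The promoters of FCER2 and CD209 are shown because these neighbours fell together, 5′ to 3′ on the strand of each gene with every CG in capitals.
FCER2: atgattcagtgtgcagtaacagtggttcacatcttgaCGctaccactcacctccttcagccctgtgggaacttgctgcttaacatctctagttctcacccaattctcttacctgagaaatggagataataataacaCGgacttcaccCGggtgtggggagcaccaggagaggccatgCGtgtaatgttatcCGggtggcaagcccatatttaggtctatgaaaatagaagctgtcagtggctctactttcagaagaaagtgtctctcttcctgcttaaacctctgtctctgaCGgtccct
CD209: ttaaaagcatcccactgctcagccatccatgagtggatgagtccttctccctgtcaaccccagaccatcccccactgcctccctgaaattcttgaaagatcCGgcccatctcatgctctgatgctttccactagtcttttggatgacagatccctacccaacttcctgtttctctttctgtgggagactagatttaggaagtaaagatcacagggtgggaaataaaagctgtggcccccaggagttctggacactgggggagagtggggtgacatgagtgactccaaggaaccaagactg
They lie at chr19:7702082-7702381 (minus strand) and chr19:7747485-7747784 (minus strand) in RefSeq's GRCh38.p14. The FCER2 window holds 6 CpG and the CD209 window 1. A comparison of promoter CpG content between the genes that rose and fell is void, because a promoter was matched for 79.7% of the genes higher in both pairs and 77.1% of those lower, under the 80% needed.

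Long genes were more often higher in PHF8 and short genes more often lower. The gene span, from start to end with introns, had a median of 61.5 kb for genes higher in both pairs, 24.0 kb for those lower and 31.3 kb for the rest. Of genes under 10 kb, 7.46% were higher and 13.5% lower in both pairs. Over 150 kb these shares were 27.7 and 6.26%. The median log2 difference rose over the 5 span classes from -0.05 to 0.15, and it did so in pair 1 (-0.06 to 0.19) and in pair 2 (-0.05 to 0.12).

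Transcript composition ran along with it. The longest transcript had a median GC content of 44.7% for genes higher in both pairs and 55.6% for genes lower. Among transcripts under 40% GC, 21.2% were higher and 3.91% lower, and at 60% and over 5.6 and 17.6%. Within genes under 50% GC the share higher still went from 13.3% under 10 kb to 30.0% over 150 kb, and at 50% GC and over from 6.0 to 20.5%. The share lower changed little with span once GC was fixed below 50%, between 4.73 and 6.32%. At 50% GC and over it went from 15.6% under 10 kb to 8.59% over 150 kb.

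Chromosomes differed too. Chromosome 4, with a median transcript GC of 42.6%, had 27.4% of its tested genes higher in both pairs and 6.70% lower, and chromosome 22, at 57.4% GC, had 4.14% higher and 13.0% lower. No chromosome's median log2 difference left the range from -0.04 (chromosome 16) to 0.10 (chromosome 13). Reads were counted over whole spans, introns included, and whether RNA quality or GC-dependent library preparation took part in these trends was not tested. With each sample's trend on span or on transcript GC removed, 3124 of 3232 and 2960 of 3083 genes called in both pairs were called with the same sign.

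**Figure D4:**
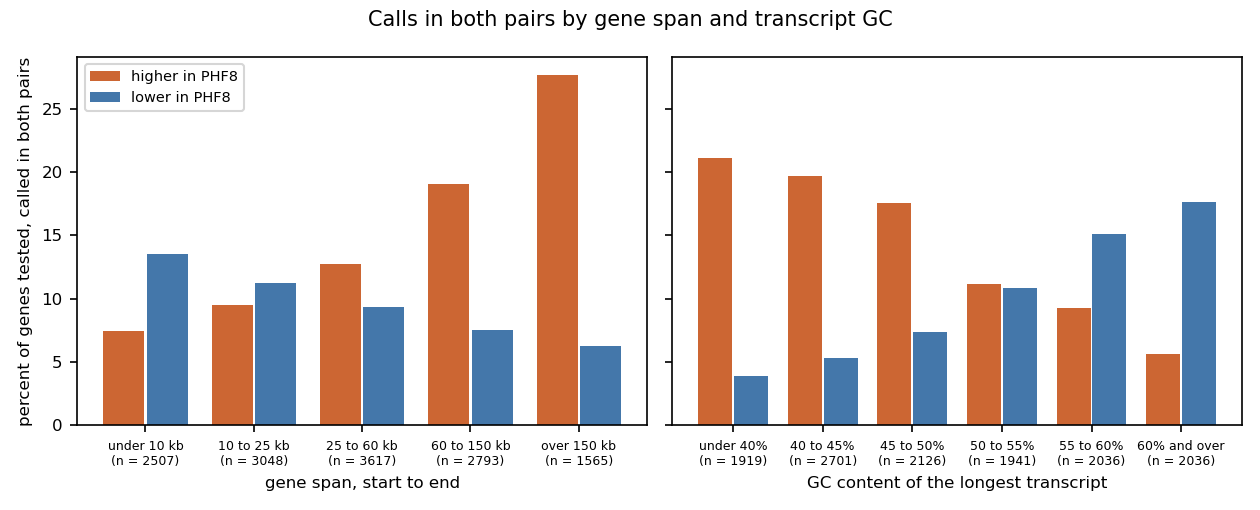
Percent of tested genes called higher or lower in PHF8 in both pairs, by gene span (left) and by GC content of the longest transcript (right), with the number of genes under each class. The share higher climbs from 7.46% to 27.7% with span and drops from 21.2% to 5.6% with GC.

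The difference between PHF8 and F279S was not the same in the 2 pairs for many genes. It differed at an adjusted p below 0.05 for 3194 genes (23.6%), and for 6088 when the replicate number 1 to 4 was the block. That test has only the spread between samples of the same line and pair to go by. If those are not separate cultures, a difference between pairs has no replication, so these counts describe these samples only. Of the 3232 genes called in both pairs, 528 (16.3%) differed in size. Another 371 genes (2.74%) were called with opposite signs, 145 higher in pair 1 and lower in pair 2 and 226 the reverse. Leaving out 1 sample brought the count of 3194 down to 1454 without PHF8 replicate 2, 1461 without PHF8 replicate 1, 1765 without PHF8 replicate 4 and 1856 without F279S replicate 3.

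The 6 clearest of these genes followed no single pattern. CRIP2, a LIM-domain protein, had 6.79, 7.51, 3.48 and 3.32 CPM in F279S and 3.75, 3.70, 12.2 and 11.6 CPM in PHF8, so PHF8 was lower in pair 1 (-0.86) and higher in pair 2 (1.67). TFRC, the transferrin receptor, and LMNA, a nuclear lamin, were likewise lower in pair 1 and higher in pair 2, TFRC at 453, 413, 307 and 312 against 257, 250.5, 345 and 363 CPM and LMNA at 350.0, 357, 261 and 259 against 222, 225, 308 and 288 CPM. NPTX1, a neuronal pentraxin, was -0.43 and 0.60, within lines that had several times more of it in pair 2. NDRG1, a gene induced by hypoxia and stress, was higher with PHF8 in pair 1 (70.0, 65.0, 545 and 575 against 86.5, 94.7, 336 and 332 CPM) and lower in pair 2, and so was the relaxin receptor RXFP1 (0.68 and -0.54). In the fit over both pairs none of the 6 was called (adjusted p from 0.18 to 0.8). For NDRG1, wt also went from 112 and 106 CPM in pair 1 to 508 and 539 CPM in pair 2.

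**Figure D5:**
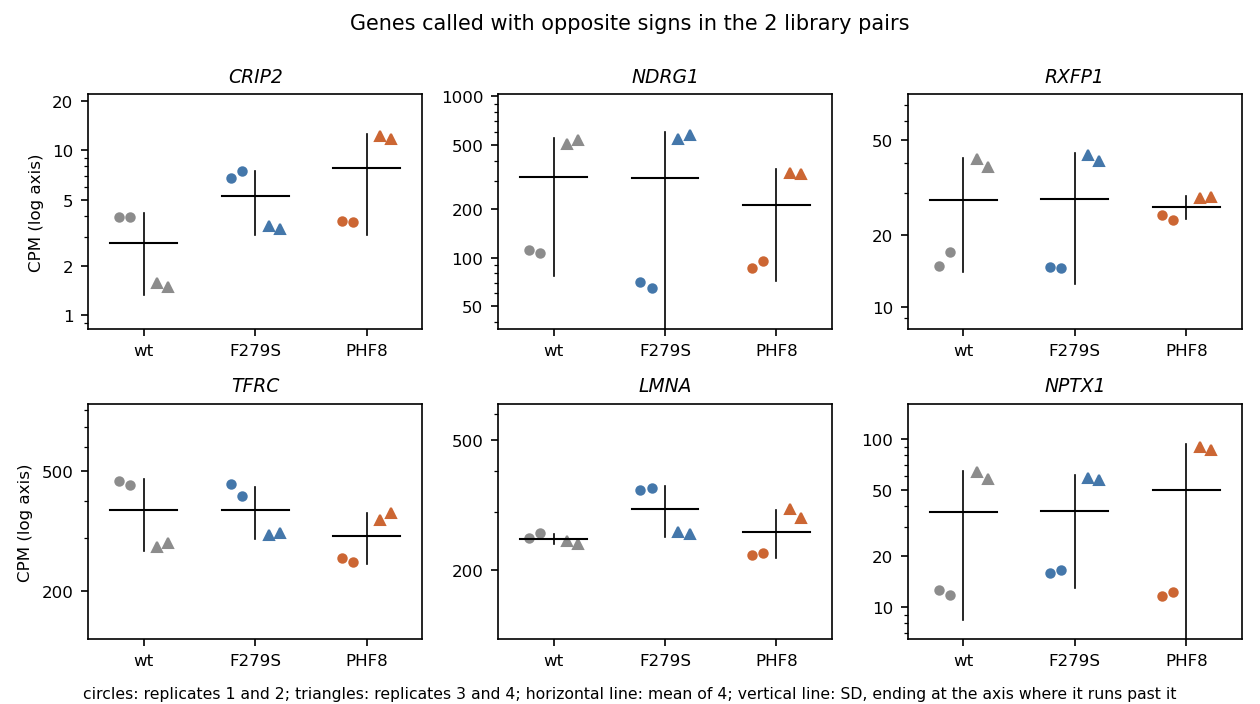
CPM on a log axis of the 6 genes called with opposite signs in the 2 library pairs, in wt, F279S and PHF8 (horizontal line the mean of 4 samples, vertical line the SD). In CRIP2 the PHF8 circles (replicates 1 and 2) lie below the F279S circles and the triangles (replicates 3 and 4) above, and in NDRG1 and RXFP1 the reverse holds.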

How the data were processed

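Poly(A) RNA of THP-1 cells was sequenced on a NextSeq 500 from NEBNext Ultra II libraries, per the labels' protocols. The authors deposited RPKM values per gene, with gene starts and ends on hg38. STAR 2.7.0c, SAMtools 1.9 and DESeq2 are named in the submitters' processing notes, while for the counting tool, annotation and strand setting the sources used here give nothing. RPKM times the span in kb gave CPM, and all values came out as whole reads within 0.001 read, over whole spans with introns, so long introns weigh in. Tests used limma 3.58.1 (R 4.3.3) with trend on log2(CPM + 0.5), at least 1 CPM in at least 4 of the 8 samples, and the library pair as a block (5 residual degrees of freedom). Benjamini-Hochberg adjustment ran over all 13530 genes. The fit was tested on simulated data.

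Same-numbered PHF8 and F279S samples deviated together (r from 0.54 to 0.72). So did samples of the same pair with different numbers (r from 0.32 to 0.64), while samples of different pairs deviated oppositely (r from -0.67 to -0.40). The pairs were therefore taken as the block, which comes from the data and not from the labels. The replicate number was the block in an alternative only. No 2 samples agreed within sampling noise: chi-square per degree of freedom was 1.95 at the lowest. Genes were named as the 12 largest rises and falls, the 4 largest CPM differences each way, the 6 clearest with opposite signs, and up to 3 members a list by smallest p, others completing a list. The members and lists were chosen with earlier results of these data known. Sequences are from RefSeq, and transcript GC from GENCODE. Alternatives covered the block, averaging, pseudocount, filter, scaling, voom on the recovered reads, overlap, span, GC and leaving out each sample. The other 6 samples of the series were not used here. Some genes of the lists are counted in them but not reported here by name.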

Additional observations from a re-analysis of the deposited data

Results flagged for a closer look

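Each named gene's 4 samples in each line were compared for a sample standing apart from the other 3, by the gap to the nearest over the range of the 4 (Dixon's test). Over 99 genes and 198 groups this flagged 3. Chance at 5% would give about 9.9 for 4 independent samples, but the samples of a line group by pair, so the counts cannot be compared. DDX58 was lowest in PHF8 replicate 2, at 19.3 CPM against 20.9 to 21.1 CPM in the others, and still above every F279S sample. KDELC1 was highest in F279S replicate 2, at 2.08 CPM against 1.69 to 1.73 CPM. PGR was lowest in F279S replicate 1, at 0.476 CPM against 0.854 to 0.915 CPM.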

How the results depend on the processing

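None of the 91 named genes followed across the alternatives changed sign under any of them, but the medians of the granule, demethylase, writer, replication and heat shock lists change sign with the scaling or with a trend removed. Of 5408 genes changed, 2787 were called with no replicate block, 1609 with each pair averaged and 3521 when genes that overlap another were left out (fewer genes tested). With the replicate number 1 to 4 as the block there were 4801, with 4406 in both pairs against 3232. The count whose difference differs between pairs, 3194, became 6088 with that replicate block, 2128 with no filter on low values and 2005 without overlapping genes. Leaving out 1 sample gave 4367 to 5406 genes changed, 2454 to 3173 in both pairs and 1454 to 3337 that differ between pairs. Of the 91 named genes called, 79 stayed called with no replicate block and 79 with each pair averaged, 89 with no filter, and at least 90 under each other alternative that tested all 91; the cause was not tested. Removing the trend on transcript GC was chosen after seeing the data. Scaling by median ratios or quantiles, or removing a trend, put the share of called genes that are higher between 49.0 and 50.3%, against 57.0%. At the lowest depth, 18239474 reads, 3 counts are 0.164 CPM, so values near that level are at the limit of depth, and such floors cover counting error only.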
